A study of Mus musculus with 2 samples.

Results

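The chemokines with a CXC motif that draw neutrophils, the platelet factors encoded beside them and the receptor that reads most of them were followed through the cells of mouse skin wounds. The 7 genes were Cxcl1, Cxcl2, Cxcl3, Cxcl5, Ppbp, Pf4 and Cxcr2, taken by symbol from the 31053 genes of both count matrices, and all 7 had at least 50 UMIs over the 2 libraries. They were chosen with earlier results of these data in view, in which Cxcl3 and Ppbp had large differences between the libraries in macrophage-like cells. The difference of these genes in that class is therefore given as a description and supports nothing by itself. The study examined how wounds heal when macrophages that express CD206 are removed, by single-cell RNA sequencing of back-skin wounds 5 days after wounding. Live cells that excluded the dye 7AAD were sorted and captured in droplets, in 1 library per condition, each from 3 pooled mice. By the labels both libraries came from C57BL/6 mice of 7 to 9 weeks with the genotype Mrc1-DTR, in which the receptor for diphtheria toxin is under the promoter of Mrc1, which encodes CD206. The mice received PBS for the first library and Diphtheria toxin (DTX) for the second, whereas the methods of the study describe the controls as wild-type mice given the toxin. The text of the study also assigns the cell numbers of the libraries to the conditions in the opposite way to the labels. The libraries are called PBS and DTX here, as labelled, and the direction of every ratio rests on these labels.

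Chemokines of the CXC family carry a pair of cysteines separated by a single residue near the start of the mature protein. In most of those that attract neutrophils, the residues glutamate, leucine and arginine, the ELR motif, stand directly before the first cysteine, and such ligands bind the receptor CXCR2 on neutrophils. Fibroblasts, mural cells and myeloid cells make them after injury in response to interleukin-1, interleukin-17, tumour necrosis factor and Toll-like receptor ligands, largely through the transcription factor NF-kB. Ppbp, which encodes the precursor of CXCL7, and Pf4, which encodes CXCL4, are known best as contents of platelet granules, and macrophages can transcribe Pf4 as well.

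The 6 ligand genes lay in 1 cluster on the plus strand of chromosome 5 and the receptor gene on chromosome 1 (GRCm38, GENCODE M21). Cxcl5 (ENSMUSG00000029371) spanned chr5:90759360-90761624, Ppbp (ENSMUSG00000029372) chr5:90768518-90770063 and Pf4 (ENSMUSG00000029373) chr5:90772435-90773383. Cxcl3 (ENSMUSG00000029379) spanned chr5:90786103-90789600, Cxcl1 (ENSMUSG00000029380) chr5:90891241-90893115 and Cxcl2 (ENSMUSG00000058427) chr5:90903871-90905938. Cxcr2 (ENSMUSG00000026180) spanned chr1:74153989-74161246. The coding sequence around the pair of cysteines is shown because it separates the ELR ligands from Pf4. Each stretch holds 39 exonic bases of the transcript, 5′ to 3′, and the capitals mark the 3 codons directly before the first cysteine:
Cxcl1, chr5:90891478-90891516: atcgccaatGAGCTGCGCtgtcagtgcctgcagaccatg
Cxcl2, chr5:90904124-90904162: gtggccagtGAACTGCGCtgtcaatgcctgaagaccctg
Cxcl3, chr5:90786350-90786388: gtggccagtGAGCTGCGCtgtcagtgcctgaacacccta
Cxcl5, chr5:90759709-90759747: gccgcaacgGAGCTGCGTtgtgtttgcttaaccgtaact
Ppbp, chr5:90769067-90769105: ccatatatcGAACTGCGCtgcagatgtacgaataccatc
Pf4, chr5:90772926-90772964: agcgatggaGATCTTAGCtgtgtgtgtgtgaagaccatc
In Cxcl1, Cxcl2, Cxcl3, Cxcl5 and Ppbp these codons spell Glu-Leu-Arg, and in Pf4 they spell Asp-Leu-Ser. The first 3 genes are close copies. The transcripts of Cxcl2 and Cxcl3 shared an exact run of 110 bases, against at most 23 bases for any other pair of the 7 genes, so that reads within that run cannot be assigned to either gene and the levels of both carry this uncertainty.

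The 100 bases before the RefSeq start are shown for Cxcl1, Cxcl2 and Cxcl3, which are close copies, and for Ppbp, which was higher in the same macrophage-like cells as Cxcl3 (RefSeq promoters, GRCm38.p6, plus strand). These starts can differ from the GENCODE starts of the spans given above. The stretches of Cxcl1 and Cxcl2 end inside those spans, and distances before the start refer to RefSeq. RefSeq gave a promoter for 6 of the 7 genes, and none for Cxcl5. The capitals mark the longest word that the 250 bases before the start of Cxcl1, Cxcl2 and Cxcl3 had in common, GGGAATTTCCC, the next longest, ATAAAAGG, on either strand, and TATAAA:
Cxcl1, chr5:90891145-90891244: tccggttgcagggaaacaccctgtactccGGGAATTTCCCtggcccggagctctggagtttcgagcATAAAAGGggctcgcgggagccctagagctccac
Cxcl2, chr5:90903799-90903898: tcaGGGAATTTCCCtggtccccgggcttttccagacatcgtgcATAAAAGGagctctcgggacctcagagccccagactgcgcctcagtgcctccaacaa
Cxcl3, chr5:90786001-90786100: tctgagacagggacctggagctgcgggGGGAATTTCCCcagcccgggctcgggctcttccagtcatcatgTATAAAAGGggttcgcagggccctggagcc
Ppbp, chr5:90768418-90768517: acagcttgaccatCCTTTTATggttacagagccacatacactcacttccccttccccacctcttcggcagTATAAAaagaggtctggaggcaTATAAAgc
The first word has the form of a binding site of NF-kB, and on either strand 14 of 32851 promoters held it (0.0426%), among them those of Cxcl1, Cxcl2 and Cxcl3. ATAAAAGG, which overlaps TATAAA in Cxcl3, was held by 1.54% of promoters and TATAAA by 12.4%. In Ppbp, TATAAA stood 2 times, and ATAAAAGG once on the minus strand. The promoters of Ppbp, Pf4 and Cxcr2 did not hold the first word within the 250 bases searched, and matches of letters describe a sequence and not the binding of a factor.

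The PBS library held 12058 cells with 105511870 UMIs and the DTX library 11031 cells with 81858751 UMIs. After filters on genes, mitochondrial UMIs and doublets, 7944 PBS cells (median 9579.5 UMIs) and 6613 DTX cells (median 7286 UMIs) were kept. A UMI marks a single RNA molecule, and levels are UMIs of a gene per 1000000 UMIs of all genes in the same cells (CPM). Because each condition had 1 library, no test between conditions was possible, and all intervals are 95% intervals that cover counting error only. They are exact Poisson intervals for levels, exact conditional binomial intervals for log2 ratios and Clopper-Pearson intervals for shares. The 2 libraries shared 37 barcodes, 13 of them among kept cells. The kept cells formed 15 clusters that were named after cell types by fixed markers, without use of the 7 genes, and each of them had at least 5 raised markers of its type. Neither cluster 2 of the fibroblast-like cells nor cluster 8 of the dendritic-like cells had a marker of its type among its 10 leading genes, and the neutrophil-like cells were shallow, at 0.24 of the median UMIs of their samples, with 4 markers among theirs. Macrophage-like cells numbered 1715 in the PBS and 4447 in the DTX library, neutrophil-like cells 128 and 456, fibroblast-like cells 3066 and 658, pericyte-like cells 60 and 111, endothelial-like cells 73 and 54, and epithelial-like cells 2066 and 235. Macrophage-like cells were thus 21.6% of the kept cells of the library labelled PBS and 67.3% of those of the library labelled DTX, although the toxin is meant to remove macrophages with CD206. The study also reports a larger proportion of immune cells in wounds of Mrc1-DTR mice than in those of controls. It gives macrophages as a larger part of these immune cells, with the composition of macrophages changed. Mrc1 itself was at 496 CPM in macrophage-like cells of the PBS library and at 430.2 CPM in those of the DTX library, a log2 ratio of -0.20 (-0.25 to -0.15).

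Among the classes, Cxcl1 and Cxcl5, the ligands made mainly by stromal cells, were highest in pericyte-like cells. Cluster 2 of the fibroblast-like cells, taken alone, was above pericyte-like cells in the PBS library, with Cxcl1 at 8295 CPM (8246 to 8344) and Cxcl5 at 2312 CPM (2286 to 2338). In the DTX library it was below them, at 8731 CPM and 2464 CPM. Cxcl1 was at 7276 CPM (7100 to 7455) in pericyte-like cells of the PBS library and at 11489 CPM (11327 to 11652) in those of the DTX library. In fibroblast-like cells it was at 4437 CPM (4415 to 4459) and 6168 CPM (6118 to 6217). Endothelial-like cells followed with 1832 CPM (1751 to 1916) and 3663 CPM (3530 to 3801). These 3 classes kept the same order in both libraries with no overlap of intervals. Leaving out the 7 and 11 myocyte-like cells, all other classes lay between 23.99 CPM and 201 CPM, and among them the intervals of neutrophil-like and epithelial-like cells overlapped in the PBS library, at 197 CPM (139 to 272) and 146 CPM (142 to 150.4). Cxcl5 was at 1609 CPM (1527 to 1694) and 2917 CPM (2836 to 3000) in pericyte-like cells and at 952 CPM (942 to 962) and 1602 CPM (1577 to 1627) in fibroblast-like cells. Outside these classes and the endothelial-like cells, 154.5 CPM and 22.1 CPM, it did not exceed 31.96 CPM in any class but the myocyte-like cells, which had 1 UMI in each library. With every cell thinned to 1000 UMIs, a UMI of Cxcl1 was found in 93.2% of PBS and 92.8% of DTX pericyte-like cells, and in 64.6% and 69.7% of fibroblast-like cells. In NK- or T-like cells, as a background, these shares were 5.36% and 3.31%, at medians of 6534 and 8059 UMIs per cell against 11177 and 13959.5 in fibroblast-like cells.

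**Figure D1:**
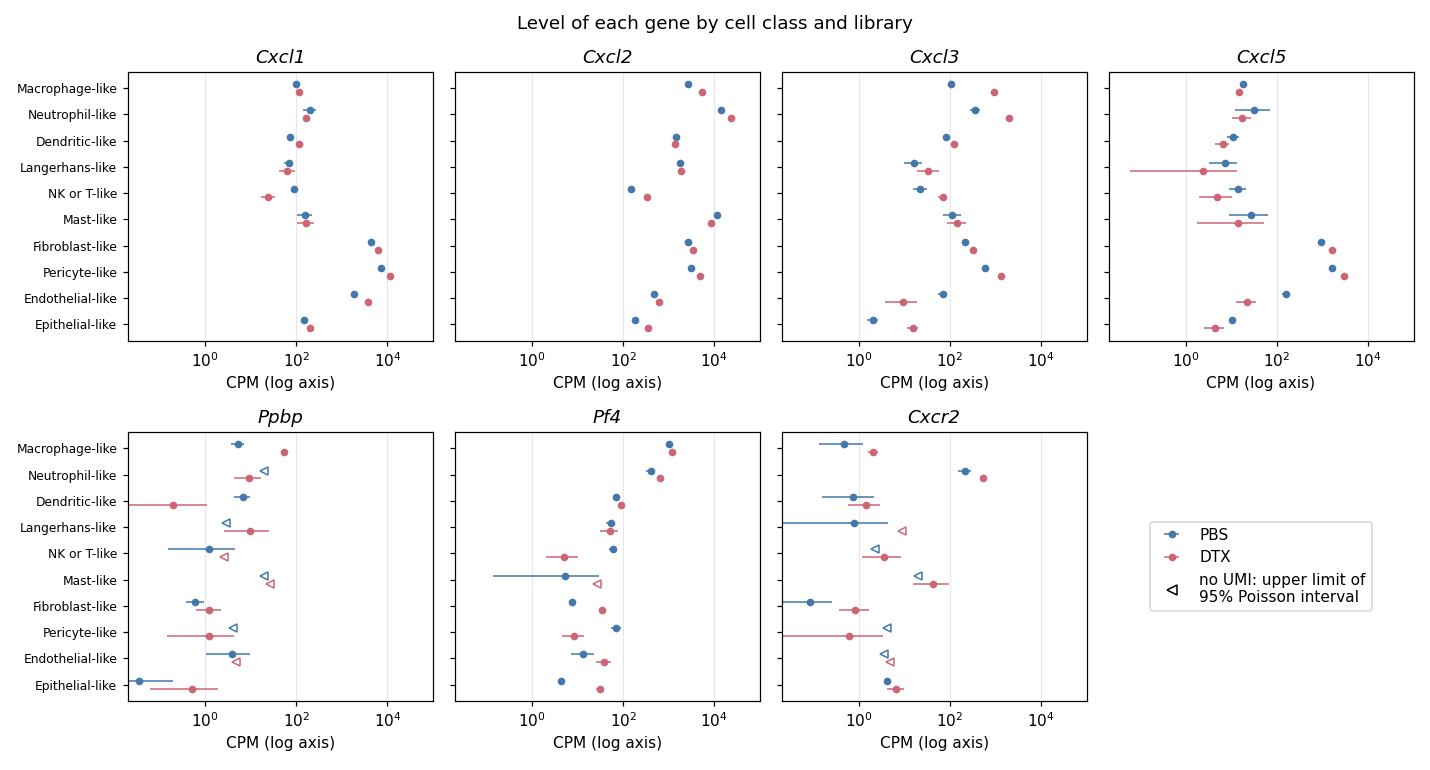
Level of each gene in CPM on a log axis (x) by cell class (y), in the PBS (blue) and DTX (red) library, with 95% Poisson intervals as lines and open triangles for the upper limit where no UMI was found. Cxcl1 and Cxcl5 peak in pericyte-like and fibroblast-like cells, Cxcl2 in neutrophil-like cells, Pf4 in macrophage-like cells and Cxcr2 in neutrophil-like cells.

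Over all kept cells Cxcl2 was the most abundant of the 7 genes in the DTX library and came after Cxcl1 in the PBS library. It was highest in neutrophil-like cells, at 14160.4 CPM (13627 to 14709) in the PBS and 23239 CPM (22955 to 23526) in the DTX library. Mast-like cells came next, with 11458 CPM in 34 PBS cells and 8476 CPM in 18 DTX cells. In the PBS library pericyte-like cells followed with 3129 CPM (3014 to 3247), then fibroblast-like cells with 2679 CPM (2662 to 2697) and macrophage-like cells with 2656 CPM (2621 to 2691), whose intervals overlapped. In the DTX library macrophage-like cells came after these, at 5398 CPM (5372 to 5424), above pericyte-like cells at 4955 CPM (4849 to 5063) and fibroblast-like cells at 3454 CPM (3418 to 3492). Cxcl2 was thus the only ELR ligand here with more than 1000 CPM in macrophage-like cells of both libraries. Cxcl3, its close copy, was less abundant. In the PBS library it was at 598 CPM (548 to 651) in pericyte-like, 357 CPM (277 to 453) in neutrophil-like, 209 CPM (204 to 214) in fibroblast-like and 106 CPM (99.1 to 113) in macrophage-like cells. In the DTX library neutrophil-like cells led with 1973 CPM (1891 to 2058), before pericyte-like cells with 1284 CPM (1230.2 to 1339), macrophage-like cells with 900.2 CPM (889.7 to 911) and fibroblast-like cells with 316 CPM (305 to 328). Apart from myocyte-like cells, which had none, epithelial-like cells had the lowest level of Cxcl3 in the PBS library, at 2.00 CPM, and endothelial-like cells in the DTX library, at 9.09 CPM.

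Pf4 belonged to macrophage-like cells, with 1007 CPM (986 to 1029) in the PBS and 1154 CPM (1142 to 1166) in the DTX library. The share of these cells with a UMI of Pf4, thinned to 1000 UMIs, ran the other way, at 37.2% and 28.2%, so no order is read from it. Neutrophil-like cells followed with 399.6 CPM (314 to 501) and 647 CPM (600.1 to 696), but 94.2% of the 711 UMIs in the DTX library came from the 23 of 456 cells with the most, and 1 cell held 192 of them. All other classes had at most 87.5 CPM. Ppbp was the rarest ligand. It had 98 UMIs in all kept cells of the PBS and 1664 UMIs in those of the DTX library. In the PBS library dendritic-like cells, at 6.56 CPM (4.33 to 9.55), and macrophage-like cells, at 5.13 CPM (3.71 to 6.91), did not differ beyond their intervals, and the 27 UMIs of the former came from 6 cells. In the DTX library macrophage-like cells had 53.2 CPM (50.6 to 55.8), and 1633 of the 1664 UMIs were theirs. No other class of that library exceeded 9.57 CPM, reached by 4 UMIs in Langerhans-like cells. Thinned to 1000 UMIs, 0.414% of PBS and 2.72% of DTX macrophage-like cells had a UMI of Ppbp, at medians of 4714 and 6731 UMIs per cell. Among NK- or T-like cells, the background class used for Cxcl1, these were 1 of 224 cells in the PBS library (0.446%, 0.0113 to 2.46) and 0 of 151 in the DTX library (0 to 2.41%). The PBS share was thus not above that of this class, which rests on 1 cell. In the larger PBS classes 0 of 2064 epithelial-like (0 to 0.179%) and 1 of 3056 fibroblast-like cells (0.000829 to 0.182%) had a UMI. Their intervals just overlapped that of macrophage-like cells (0.167 to 0.852%). By CPM Ppbp was at 0.0351 (0.000889 to 0.196) and 0.600 (0.371 to 0.917) in these 2 classes, below macrophage-like cells. In the DTX library 1 of 37 Langerhans-like cells (2.70%, 0.0684 to 14.2) had a UMI as well.

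Cxcr2, the receptor, was highest in neutrophil-like cells, with 208 CPM (148 to 284) from 39 UMIs in the PBS library and 538 CPM (495 to 583) from 591 UMIs in the DTX library. Thinned to 1000 UMIs, it was found in 14.8% (8.71 to 22.9) and 37.8% (33.3 to 42.5) of these cells, and unthinned in 21.1% and 60.3%. Mast-like cells of the DTX library had 42.5 CPM from 6 UMIs. Epithelial-like cells were the next with an appreciable number of UMIs, at 4.21 CPM (3.49 to 5.04) from 120 UMIs in the PBS and 6.44 CPM (4.17 to 9.51) from 25 UMIs in the DTX library. Since they were many, epithelial-like cells held 70.6% of all Cxcr2 UMIs of the PBS library, and neutrophil-like cells 22.9%. In the DTX library neutrophil-like cells held 83.8% and epithelial-like cells 3.55%. Fibroblast-like cells had 0.0857 CPM and 0.823 CPM, and endothelial-like cells had no UMI in either library, which the limit of 3 counts puts at up to 2.86 CPM and 3.90 CPM.

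**Figure D2:**
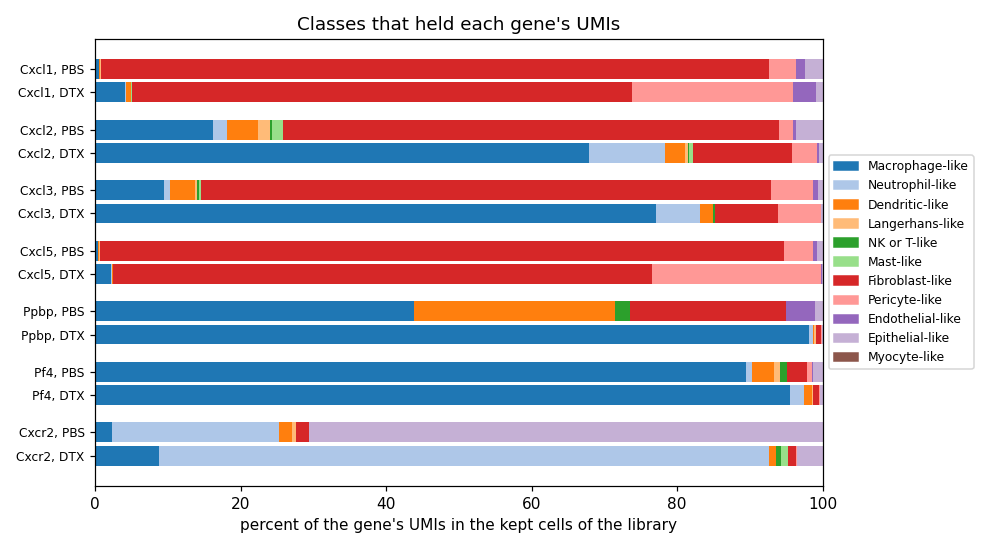
Percent of each gene's UMIs (x) held by the kept cells of each class (colours), for each gene in the PBS and the DTX library (y). Fibroblast-like cells held 68.2% of Cxcl2 UMIs in the PBS library and 13.7% in the DTX library, where macrophage-like cells held 67.8%.

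The class that supplied a gene thus differed between the libraries. Fibroblast-like cells held 68.2% of Cxcl2 and 78.4% of Cxcl3 UMIs in the PBS library, and macrophage-like cells 16.2% and 9.51%. In the DTX library fibroblast-like cells held 13.7% and 8.57%, and macrophage-like cells 67.8% and 77.1%. Cxcl1 and Cxcl5 came mainly from fibroblast-like cells in both libraries (91.7% and 94.0% in the PBS, 68.8% and 74.1% in the DTX library), with pericyte-like cells contributing 22.1% of Cxcl1 and 23.3% of Cxcl5 in the DTX library. Pf4 came from macrophage-like cells in both, at 89.5% and 95.5%. These shares depend on how many cells of each class a library held.

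Over whole libraries, a ratio also holds the difference in the makeup of cells. Cxcl1 was at 2085 CPM over all kept PBS cells and at 1589 CPM over all kept DTX cells, a log2 ratio of -0.39. With every class set to its mean share of UMIs in both libraries, Cxcl1 was at 1599 CPM and 2256 CPM, a log2 ratio of 0.50, so that the direction reversed. Cxcl5 showed the same reversal, with -0.19 as found and 0.73 at equal shares. Equal shares of classes leave the makeup within a class as found. In fibroblast-like cells, with their clusters also at the same mean share, the ratio was 0.07 for Cxcl1 and 0.17 for Cxcl5. Pf4 was at 116 CPM and 676 CPM over all cells (log2 ratio 2.53) but at 350.0 CPM and 414 CPM at equal shares (0.24). For the remaining genes a difference of the same direction was left, at 1.89 of 2.50 for Cxcl3, 2.50 of 3.83 for Ppbp, 0.70 of 1.39 for Cxcl2 and 1.10 of 2.16 for Cxcr2.

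**Figure D3:**
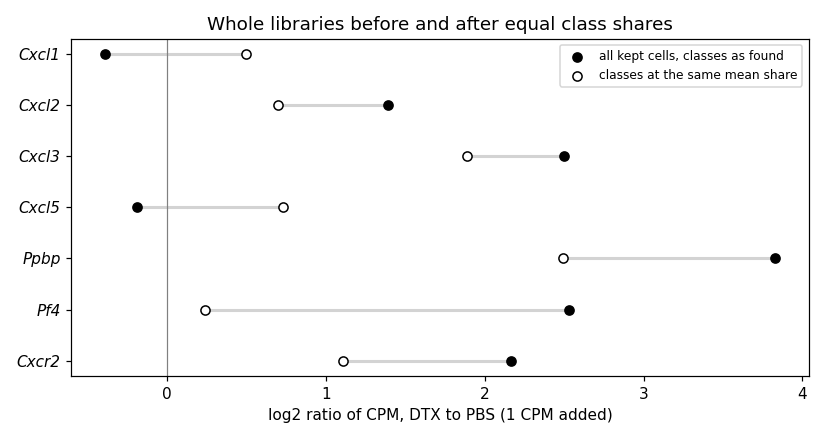
log2 ratio of CPM, DTX to PBS with 1 CPM added (x), of each gene (y) over all kept cells (filled) and with each class at its mean share of UMIs (open). Cxcl1 and Cxcl5 lie below 0 as found and above 0 at equal shares, and Pf4 moves from 2.53 to 0.24.

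In macrophage-like cells, Cxcl3, Ppbp, Cxcl2 and Cxcr2 were at least 2-fold higher in the DTX library and none of the 7 genes was 2-fold lower. Cxcl3 was at 106 CPM in the PBS and 900.2 CPM in the DTX library (log2 ratio 3.08, 2.98 to 3.17), and Ppbp at 5.13 CPM and 53.2 CPM (3.14, 2.77 to 3.53, from 43 and 1633 UMIs). Cxcl2, at 2656 CPM and 5398 CPM (1.02, 1.00 to 1.04), and Cxcr2, at 0.477 CPM and 2.02 CPM (1.03, 0.39 to 1.46, from 4 and 62 UMIs), lay at the 2-fold line. A single DTX cell held 17 of those 62 UMIs of Cxcr2, and without the cell with the most UMIs in each library, an alternative added after seeing the data, its log2 ratio was 0.99 and no longer passed 2-fold. The other 3 genes differed less, with 0.23 (0.12 to 0.34) for Cxcl1, 0.20 (0.16 to 0.23) for Pf4 and -0.28 (-0.53 to -0.02) for Cxcl5. Of 10180 genes with at least 50 UMIs in the class, 1.64% were at least 2-fold higher and 3.36% at least 2-fold lower, with a median of 0.06, but the genes were chosen on this comparison and nothing is read from the count. Centred on that median, only Cxcl3 and Ppbp passed the 2-fold line. Markers of neutrophils were also higher in these cells, with 3 of 7 listed genes at least 2-fold higher and a sum of 197 CPM and 340.4 CPM, Ly6g being at 0 in the DTX library. In macrophage-like cells with no UMI of 6 neutrophil genes, the ratio of Cxcl2 was 0.90 and that of Cxcl3 was 3.02. The 6 genes were Retnlg, Csf3r, Mmp9, Hdc, Ly6g and Trem1, so cells with S100a8 or S100a9 could remain. The study also lists Hdc and Trem1 among the genes of its Vcan+ macrophages. Markers of fibroblasts were lower there, 7 of 7 by at least 2-fold and with a sum of 752 CPM and 148 CPM, as were those of epithelial cells, 10 of 10, with a sum of 566 CPM and 174 CPM. None of these listed genes was at 0 in either library, and their part in the levels of Cxcl1 and Cxcl5 in macrophage-like cells was not tested. Of the 12 markers of macrophages themselves 5 were at least 2-fold lower and none higher, with a sum of 28950 CPM and 17645 CPM.

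A list of 12 genes of platelets and megakaryocytes was measured beside Ppbp and Pf4, since both are named for platelets. Their sum was 6.32 CPM from 53 UMIs in macrophage-like cells of the PBS library and 7.65 CPM from 235 UMIs in those of the DTX library, a log2 ratio of 0.24 (-0.14 to 0.63). Itgb3, an integrin that is not confined to platelets, made up 38 and 187 of these UMIs. Gp9, Gp6, Tubb1 and Alox12, which encode platelet proteins, had no UMI in macrophage-like cells of either library, and Gp1bb had none in those of the PBS library. Ppbp alone had 1633 UMIs in the same DTX cells, and Pf4 had 35433. The sum of the list was taken over all 4447 of these cells, of which 292 had a UMI of Ppbp. In macrophage-like cells with no UMI of the 12 genes, the log2 ratio of Pf4 was 0.13. The same restriction was among the 11 alternatives for Ppbp, whose log2 ratios lay between 2.61 and 4.54. The part of platelets in the levels of Ppbp and Pf4 was not tested beyond this.

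**Figure D4:**
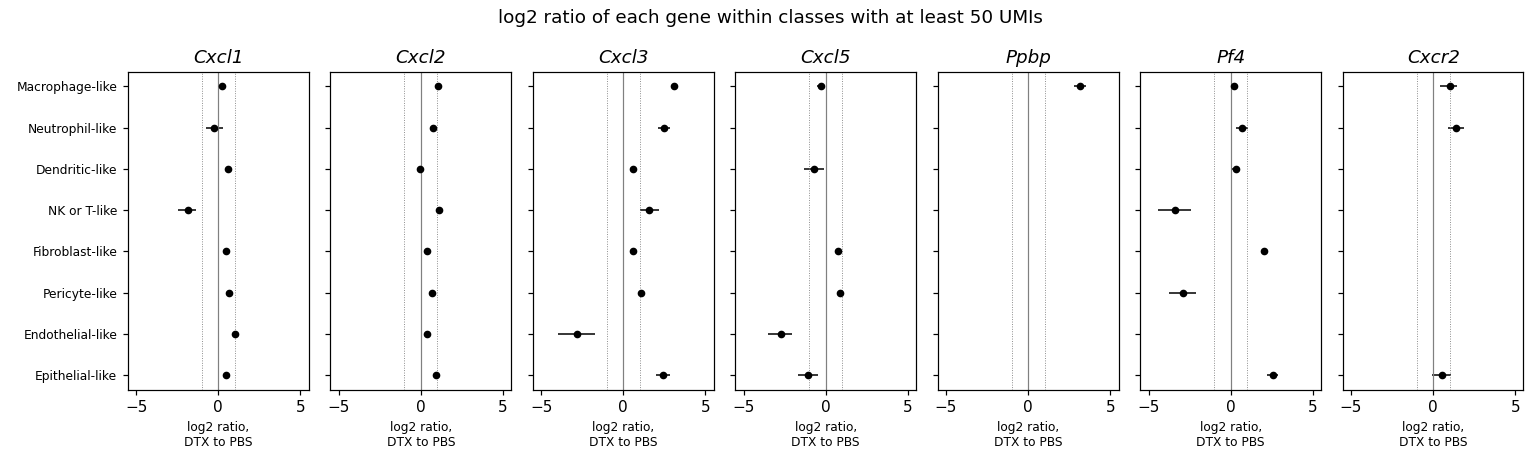
log2 ratio of CPM, DTX to PBS (x), of each gene within each class (y) that had at least 50 UMIs of it, with 95% counting intervals as lines and dotted lines at a 2-fold difference. Cxcl3 lies above 0 in all classes shown but the endothelial-like cells, at -2.79 with 63 of 72 PBS UMIs in 1 cell, and Pf4 is near 0 in macrophage-like cells, at 0.20.

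In fibroblast-like cells only Pf4, at 7.42 CPM and 33.6 CPM (log2 ratio 2.04, 1.82 to 2.26), was at least 2-fold higher among the 5 genes with enough UMIs, and none was 2-fold lower. With at most 2000 genes per cell this call was lost, Pf4 being at 0.89, while Cxcl2 was at 2.14 and Cxcl3 at 1.82. Over 11815 genes of the class 2.67% were higher and 1.4% lower by this measure. Cxcl5 had a log2 ratio of 0.75 (0.72 to 0.78), Cxcl3 of 0.60 (0.53 to 0.66), Cxcl1 of 0.48 (0.46 to 0.49) and Cxcl2 of 0.37 (0.35 to 0.38). Clusters 1 and 2 made up this class, and their shares of it differed between the libraries. Cluster 1, led by Ctsk and Serpina3n, held 2168 PBS and 313 DTX cells, and cluster 2, led by Mfap5 and Sfrp2, held 898 and 345. Within cluster 2 Cxcl1 was at 8295 CPM (8246 to 8344) and 8731 CPM (8656 to 8807), Cxcl5 at 2312 CPM and 2464 CPM, and Cxcl3 at 506 CPM and 491 CPM. Within cluster 1 Cxcl1 was at 2120.3 CPM (2101 to 2140) and 2225 CPM (2178 to 2273), while Cxcl5 was at 136 CPM and 277 CPM (log2 ratio 1.02, 0.92 to 1.13). With both clusters at the same mean share, an alternative added after seeing the data, the ratio of Cxcl1 was 0.07 and that of Cxcl5 was 0.17. The fibroblast-like cells of the DTX library also carried more RNA of myeloid genes. Of 12 macrophage markers 10 were at least 2-fold higher, among them Lyz2 (46.5 CPM and 204 CPM) and C1qb (12.4 CPM and 41.7 CPM), and the sum of 8 neutrophil markers was 21.0 CPM and 94.0 CPM. The 12 macrophage markers summed to 1699 CPM and 1069.6 CPM, because Apoe, at 1590.3 CPM and 695 CPM, made up most of the sum and was the single lower gene, and none was at 0. The part of these genes in the levels of Pf4, Cxcl2 and Cxcl3 there was not tested.

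In neutrophil-like cells Cxcl3 and Cxcr2 were at least 2-fold higher in the DTX library, 2 of the 5 genes with at least 50 UMIs, and none was 2-fold lower. Over 2731 genes of the class 5.75% were higher and 5.2% lower. Cxcl3 was at 357 CPM and 1973 CPM (log2 ratio 2.46, 2.11 to 2.84, from 67 and 2169 UMIs), and Cxcr2 at 208 CPM and 538 CPM (1.37, 0.90 to 1.87). With doublets kept, Cxcr2 was at 0.83 and Cxcl2 at 0.32, so that only Cxcl3 passed 2-fold among these 3 genes. Cxcl2 was at 14160.4 CPM and 23239 CPM (0.71, 0.66 to 0.77), and Cxcl1 did not differ beyond its interval (-0.26, -0.77 to 0.29). The defining markers differed as well, since the sum of 8 neutrophil markers was 42748 CPM in the PBS and 92613 CPM in the DTX library, and that of 12 macrophage markers 8700 CPM and 5779 CPM. Markers of fibroblasts summed to 2168 CPM and 338 CPM in the same cells, and those of epithelial cells to 1961 CPM and 425 CPM. The part of these in the ratios was not tested. Of the 8 neutrophil markers 3 were at least 2-fold higher in the DTX library and none 2-fold lower, with a median log2 ratio of 0.54. Csf3r and Hdc, 2 of the markers that differed less, were at 634 CPM and 577 CPM and at 1859 CPM and 1964 CPM. Cxcr1, the other receptor for ELR ligands, had 3 and 58 UMIs, at 15.98 CPM and 52.8 CPM, and Cxcr4, the receptor for CXCL12, was at 496 CPM and 355 CPM.

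In pericyte-like cells Cxcl1, Cxcl2, Cxcl3 and Cxcl5 were higher in the DTX library, with log2 ratios of 1.10 (0.96 to 1.24) for Cxcl3, 0.86 (0.77 to 0.94) for Cxcl5, 0.66 (0.62 to 0.70) for Cxcl1 and 0.66 (0.60 to 0.73) for Cxcl2. Of the 5 genes with enough UMIs Cxcl3 passed 2-fold upward and Pf4, at 69.4 CPM and 8.34 CPM, downward, while 2.2% of all genes of the class were higher and 2.11% lower by this measure. In endothelial-like cells Cxcl1 was higher, at 1832 CPM and 3663 CPM (1.00, 0.92 to 1.08), and Cxcl2 was at 464 CPM and 602 CPM (0.38, 0.19 to 0.56). Without the cell with the most UMIs in each library, Cxcl1 was at 0.94 and Cxcl2 at -0.02 (-0.24 to 0.20). Cxcl5, at 155 CPM and 22.1 CPM, and Cxcl3, at 68.7 CPM and 9.09 CPM, had log2 ratios of -2.75 and -2.79 there, the 2 of 4 genes that passed 2-fold downward, beside 2.65% of all genes lower and 1.86% higher. Both rested on single PBS cells, which held 140 of the 162 UMIs of Cxcl5 and 63 of the 72 UMIs of Cxcl3. Without them and their DTX counterparts the ratios were -1.11 (-2.40 to 0.08) and -0.34 (-1.93 to 1.18). Without thinning, Cxcl3 was found in 3 of 73 PBS and in 6 of 54 DTX endothelial-like cells, which is the opposite order. Thinned to 1000 UMIs, it was found in 2.74% and 1.85% of them, from 2 cells and 1 cell, so no order is read from these shares. In dendritic-like cells Cxcl2 did not differ beyond its interval (-0.05, -0.10 to 0.00), while Cxcl3 was higher (0.62, 0.42 to 0.81). Cxcl1 had a log2 ratio of 0.60, but 1 DTX cell held 207 of its 566 UMIs, and without the cell with the most UMIs in each library the ratio was 0.08 (-0.14 to 0.31). With at most 2000 genes per cell Cxcl1 was at -0.073 and Cxcl3 at -4.39, but the class then held 39 PBS and 4 DTX cells. The clusters of this class differed, since Cxcl2 had a log2 ratio of -0.31 (-0.37 to -0.25) in cluster 5 and 0.81 (0.69 to 0.92) in cluster 8. Cxcl3 had 0.78 (0.56 to 1.01) in cluster 5 and -0.26 (-0.71 to 0.19) in cluster 8. The name of cluster 8 was not stable. With doublets kept, a cluster of 106 PBS and 113 DTX cells with most of its leading genes was named after macrophages.

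In epithelial-like cells Cxcl2 was at 178 CPM and 345 CPM (log2 ratio 0.95, 0.87 to 1.04) and Cxcl3 at 2.00 CPM and 15.2 CPM (2.43, 1.98 to 2.86), the latter from 57 and 59 UMIs. Cxcl1 was at 146 CPM and 201 CPM (0.46, 0.35 to 0.57), but its direction depended on the cluster, with -1.40 (-1.95 to -0.89) in cluster 3, led by Ifi202b, and 0.16 (0.05 to 0.28) in cluster 4, led by Cst6. The size of the ratio of Cxcl2 depended on it too, with 2.02 (1.81 to 2.22) in cluster 3 and 0.27 (0.17 to 0.37) in cluster 4. Cluster 3 held 1142 PBS and 79 DTX cells, and cluster 4 held 924 and 156. Cxcl5 was lower, at 10.4 CPM and 4.38 CPM (-1.09, -1.71 to -0.49). Of the 6 genes with enough UMIs 2 passed 2-fold upward, Cxcl3 and Pf4, and 1 downward, Cxcl5, beside 2.67% of all genes higher and 2.07% lower. A single PBS cell held 73 of the 297 UMIs of Cxcl5. Without the cell with the most UMIs in each library, its ratio was -0.86 (-1.51 to -0.23) and no longer passed 2-fold. Cxcl3, with 20 of its 59 DTX UMIs in 1 cell, was then at 1.92, and Pf4 was at 1.52. Thinned to 1000 UMIs, Cxcl3 was found in 4 of 2064 PBS and 0 of 233 DTX cells, so no order is read from these shares. Of 11 measured macrophage markers 10 were at least 2-fold higher in these cells and none lower, while the 12 listed summed to 5037 CPM and 4424 CPM. The 8 neutrophil markers summed to 112 CPM and 517 CPM. The part of these genes in the levels of Cxcl3 and Pf4 was not tested. In NK- or T-like cells 2 of the 4 genes with enough UMIs, Cxcl2 and Cxcl3, were at least 2-fold higher, with log2 ratios of 1.14 (0.91 to 1.37) and 1.59 (1.04 to 2.16). The other 2 were at least 2-fold lower, Cxcl1 at 90.2 CPM and 23.99 CPM (-1.87, -2.43 to -1.34) and Pf4 at 60.2 CPM and 4.94 CPM (-3.36, -4.40 to -2.40). Over 6348 genes of the class 1.12% were higher and 1.29% lower. Of 7 measured macrophage markers 5 were at least 2-fold lower in this class and none higher, and their part in the level of Pf4 was not tested. The ratio of Pf4 reversed with doublets kept (1.30) and with at most 2000 genes per cell (2.78). The latter came from clusters of 61 PBS and 21 DTX cells and of 20 and 10 cells. Thinned, 10.3% of PBS and 9.27% of DTX NK- or T-like cells had a UMI of Cxcl2, and 61.8% and 77.8% of macrophage-like cells. In Langerhans-like cells no gene with at least 50 UMIs differed beyond its interval, with Cxcl2 at 1797 CPM and 1862 CPM (0.05, -0.07 to 0.17).

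Macrophage-like cells fell into 7 subclusters when clustered again, also without the 7 genes, and the libraries filled them unequally. Subcluster 0, led by Ccl8, Mid1, Gm47283, Selenop and Dcn, held 1231 of the PBS and 240 of the DTX cells. Subcluster 1 (Arg1, Ccl24, Fn1, Cd9, Pdpn) held 33 and 1214, subcluster 2 (Hp, Ifitm6, Slpi, Vcan, Saa3) 41 and 1121, and subcluster 3 (Ccl7, Cbr2, Ccl2, Ly6a, Ccl6) 52 and 1023. Subcluster 4 (Il1r2, Ramp3, H2-Ab1, Pgf, H2-DMb1) held 99 and 600, subcluster 5 (Hspa1a, Hspa1b, Lpl, Hspb1, Gpnmb) 195 and 157, and subcluster 6 (Cxcl10, Rsad2, Ifit1, Ifit3, Isg15) 64 and 92. Cxcl3 was highest in subcluster 1 of the DTX library, at 1849 CPM, against 274 CPM in the PBS cells of that subcluster. It was higher in the DTX library in 6 of the 7 subclusters, with log2 ratios between 0.86 in subcluster 4 and 3.74 in subcluster 6, the latter from 7 PBS UMIs. In subcluster 5 it was lower, at 151 CPM and 55.8 CPM (-1.42, -1.87 to -0.99). At the same mean makeup of subclusters, added after seeing the data, the ratio of Cxcl3 was 2.19, that of Ppbp 2.61, that of Cxcl2 0.64 and that of Pf4 0.47. The value of Ppbp rested in part on the few PBS cells of subclusters 1, 2 and 3, which had 3, 0 and 0 of its UMIs.

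**Figure D5:**
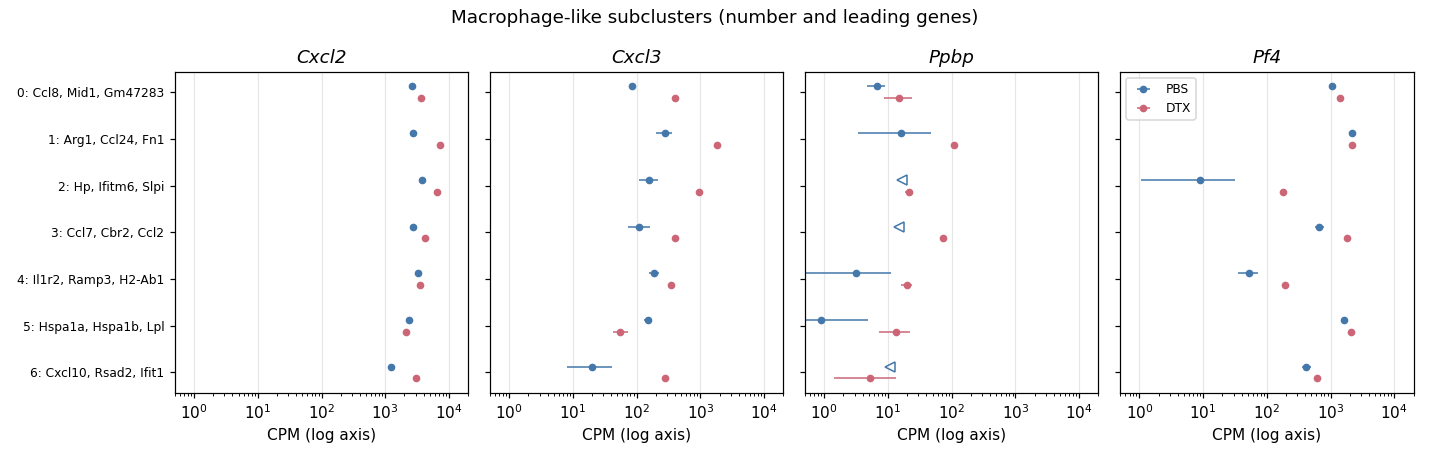
Level in CPM on a log axis (x) of Cxcl2, Cxcl3, Ppbp and Pf4 in each macrophage-like subcluster (y, number and leading genes), in the PBS (blue) and DTX (red) library, with 95% Poisson intervals as lines and open triangles for the upper limit where no UMI was found. Cxcl3 is higher in the DTX library in all subclusters but 5, and Pf4 is level in subcluster 1, at 2175 CPM and 2169.5 CPM.

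Ppbp in the DTX library was highest in subcluster 1, at 108 CPM, which held 52.7% of its macrophage UMIs, and in subcluster 3, at 72.1 CPM. The PBS cells of subcluster 3 had no UMI of Ppbp, and the DTX level there was 6.07 times what 3 counts would give in that library. In subcluster 2, also without a PBS UMI, this multiple was 1.63. Both treat UMIs as independent, whereas Ppbp lay in few cells. Thinned to 1000 UMIs, 0 of 52 PBS (0 to 6.85%) and 26 of 1023 DTX cells (2.54%, 1.67 to 3.70) of subcluster 3 had it. In subcluster 2 these were 0 of 41 (0 to 8.60%) and 13 of 1121 (1.16%, 0.619 to 1.98). The intervals overlapped in both, so no fold is read there. In subcluster 0, where PBS cells were many, Ppbp was at 6.60 CPM and 15.0 CPM (log2 ratio 1.08, 0.24 to 1.86). Pf4 was spread otherwise. By CPM it did not differ beyond its interval in subcluster 1, at 2175 CPM and 2169.5 CPM (0.00, -0.15 to 0.14), and was higher in the DTX library in the other 6. The share of cells with Pf4, thinned to 1000 UMIs, did not follow this order throughout. It was lower in the DTX library in subclusters 4 (9.09% and 6.83%), 5 (49.7% and 39.5%) and 6 (21.9% and 21.7%). It was higher in subclusters 0 (39.7% and 40.1%), 2 (0% and 8.92%) and 3 (28.85% and 40.3%). The ratio was largest in the subclusters where Pf4 was rarest, subcluster 2, at 8.85 CPM and 178 CPM (4.19, 2.44 to 6.44, from 2 and 1478 UMIs), and subcluster 4, at 51.6 CPM and 196 CPM (1.90, 1.41 to 2.44). In subcluster 3 it was at 669.6 CPM and 1780.4 CPM (1.41, 1.19 to 1.64). Cxcl2 was at 1219.6 CPM or more in all 7 subclusters of both libraries, with a log2 ratio from -0.16 in subcluster 5 to 1.41 in subcluster 1.

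In single cells Ppbp was concentrated. Of the 4447 macrophage-like cells of the DTX library 292 had a UMI of it, and the 223 cells with the most held 95.8% of its UMIs, up to 68 in 1 cell. By the same measure the top 223 cells held 26.3% of Cxcl2, 43.8% of Cxcl3 and 52.8% of Pf4 UMIs. They held 72.9% of Cxcl1, 94.9% of Cxcl5 and 100% of Cxcr2 UMIs. Cxcl5 was found in 246 cells and Cxcr2 in 36, against 4100 for Cxcl2. For a gene found in few cells, a high share is thus partly set by its rarity, and Ppbp was not alone in it. With every cell thinned to 1000 UMIs, 80.0% (71.7 to 86.8) of the 120 DTX macrophage-like cells with Ppbp also had Pf4, against 26.8% (25.5 to 28.2) of those without. Cxcl3 was found in 59.2% (49.8 to 68.1) of cells with and 28.5% (27.2 to 29.9) of cells without Ppbp. Cxcl2 was found in 91.1% of cells with and 72.2% of cells without Cxcl3. In PBS macrophage-like cells Cxcl3 was found in 7.79% (5.82 to 10.2) of cells with and 6.79% (5.35 to 8.48) of cells without Pf4, whose intervals overlap. In DTX cells these shares were 37.9% (35.2 to 40.7) and 26.0% (24.5 to 27.6). Among fibroblast-like cells 92.9% of PBS and 92.8% of DTX cells with Cxcl5 had Cxcl1, against 59.5% and 61.8% of those without. In DTX neutrophil-like cells Cxcl3 was found in 47.95% (40.3 to 55.7) of cells with Cxcr2 and in 47.7% (41.7 to 53.7) of those without.

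Genes that surround these ligands in the pathway were taken from lists that were chosen with earlier results of these data known. Their counts in macrophage-like cells stand beside the 1.64% and 3.36% of all genes given above as a description, and nothing is read from them. Of 12 measured genes of inducing cytokines and their receptors, 3 were at least 2-fold higher and none 2-fold lower in the DTX library, with a median log2 ratio of 0.11. Il1a was at 7.51 CPM and 25.3 CPM (1.63), Tlr4, the receptor for endotoxin, at 25.04 CPM and 93.8 CPM (1.86), and Il17a had no UMI in the PBS and 165 UMIs in the DTX library. Il17a was also the first leading gene of a cluster named after T cells when cells had at most 2000 genes. How many macrophage-like cells held its UMIs was not examined, and the part of T cells in them was not tested. With Il17a at 15 times what 3 counts would give in the PBS library, the median was also 0.11. Il1b, the most abundant inducer, was at 1795 CPM and 3495 CPM (0.96), and Tnf at 63.2 CPM and 54.3 CPM (-0.22). Of 10 genes of NF-kB and its feedback, none passed 2-fold in either direction (median 0.13), and Nfkbia, the inhibitor that NF-kB itself induces, was at 540.3 CPM and 911 CPM (0.75). Of 12 other genes for attracting or sensing neutrophil chemoattractants 5 were higher and none lower (median 0.82). These were Fpr1, Fpr2, C5ar1 and Ltb4r1, receptors for such attractants, and the ligand Ccl3, with log2 ratios from 1.17 for C5ar1 to 2.29 for Fpr1.

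Other CXC ligands were listed as well. Of 5 with enough UMIs in macrophage-like cells none was 2-fold higher and 2 were lower, Cxcl9 at 59.4 CPM and 12.02 CPM (-2.21) and Cxcl12 at 15.2 CPM and 4.40 CPM (-1.58), while the interferon-induced Cxcl10 was at 51.8 CPM and 61.4 CPM (0.24). Markers of fibroblasts were lower in the same cells, as given above, and their part in the level of Cxcl12 was not tested. None of 3 receptors of the CXC family and its scavengers passed 2-fold. Of 11 genes that cut or bind chemokines 2 were higher, the proteases Mmp8 and Mmp9, and 3 were lower, the proteases Mmp12, Mmp13 and Anpep, with Mmp9, also listed as a neutrophil marker, at 3.10 CPM and 19.1 CPM and Mmp12 at 104 CPM and 15.4 CPM. Of 6 genes of resident macrophages none was higher and 2 were lower, Gas6 (-1.98) and Folr2 (-1.69). In fibroblast-like cells Il6 was at 358 CPM and 623 CPM (0.80) and Cxcl12 at 964 CPM and 869.8 CPM (-0.15). In neutrophil-like cells Ccl4, a CC chemokine, was at 384 CPM and 2337 CPM and Il1b at 3228 CPM and 6974 CPM (1.11).

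Across the 17 sums of a class in a library with at least 50 cells, Cxcl1 and Cxcl5 had the most similar levels among the 7 genes (Pearson r of log2 levels 0.90), followed by Cxcl2 and Cxcl3 (0.84). Cxcl1 and Cxcl2 differed in pattern (0.22). These sums share libraries and depth, and the coefficients are descriptions. The 3 genes most like each member were Mgp (0.97), Il6 (0.97) and Crtap for Cxcl1, Cygb (0.98), Meg3 and Col5a1 for Cxcl5, Snx10 (0.93), Mapkapk2 and Tspan31 for Cxcl2, and Gm14005 (0.88), Catip and Zeb2 for Cxcl3. They were Ms4a7 (0.95), Trem2 and Gm36161 for Pf4, Gdf3 (0.84), Ms4a8a and Cd177 for Ppbp, and Stfa2l1 (0.95), AC110211.1 and Wfdc21 for Cxcr2. Within 500 kb of the chromosome 5 cluster 3 other genes had at least 50 UMIs in macrophage-like cells, Ankrd17 (log2 ratio 0.22), Mthfd2l (0.33) and Areg (-0.03), and none passed 2-fold. The same held for the 12 such genes around Cxcr2.

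The cells just inside and just outside the filter can be set side by side. The 127 PBS and 110 DTX cells within 100 genes above the limit of 500 genes had 252.5 CPM and 1964 CPM of Cxcl3, and the 81 and 51 cells within 100 genes below it had 147 CPM and 1666 CPM. For Cxcr2 these levels were 99.5 CPM and 504 CPM above the limit, and 32.6 CPM (3.95 to 118) and 452 CPM (272 to 706) below it. Around the limit of 6% mitochondrial UMIs, cells within 1 percentage point inside had 49.5 CPM and 443 CPM of Cxcl3, and those within 1 percentage point outside had 51.3 CPM and 284 CPM.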

How the data were processed

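Per the file headers and the labels, the authors deposited raw UMI counts per gene and cell for 1 PBS and 1 DTX library, aligned to mm10 and not normalized. The submitters' processing notes name Cell Ranger 6.1.1, and the methods name another version. The methods also state technical replicates without biological ones, and how these enter the 2 matrices is not given in the sources used here. Cells were required to have 500 or more genes and no more than 6% mitochondrial UMIs. The study's upper bound of 2000 genes, under which 2522 PBS and 2642 DTX cells pass, served only as an alternative. Doublets were scored with Scrublet (scanpy 1.11.5) at an expected rate of 8%, which removed 382 PBS cells (4.59%, by its threshold) and 575 DTX cells (8%, the highest scores). Clustering used Seurat 5.3.0 in R 4.3.3 (2000 variable genes, 30 principal components, resolution 0.2, and 0.5 within macrophage-like cells), leaving out the 7 genes and 8 pathway lists. Clusters were named from 16 marker lists. A marker counted as raised at 2 times the median cluster, with 50 CPM added, and in at least 10% of cells. UMIs were summed per class and library, and 1 CPM was added before log2 ratios, which understates ratios of rare genes. Counts of genes past 2-fold use genes with at least 50 UMIs in a class. Sums, intervals and shares came from Python 3.11.15 (scipy 1.17.1, numpy 2.4.6, pandas 2.3.3, seed 1), and the ratio code was tested on simulated data.

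The members, lists and comparisons were chosen with earlier results of these data known. Genes named are the 7 members, genes of the lists, the 3 genes most like each member, genes within 500 kb, the 5 leading genes of each macrophage subcluster, and Mrc1. The leading genes given for fibroblast and epithelial clusters were chosen after their values were seen. Cxcl11, a listed gene, was not analysed here. Alternatives were other filters, doublets kept, another added value, centring, other clusterings, removal of cells with platelet or neutrophil genes, and, added after seeing the data, a fixed makeup of clusters within a class and the removal of the cell with the most UMIs of a gene.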

Additional observations from a re-analysis of the deposited data

Results flagged for a closer look

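In 3 cases a gene was at least 2-fold lower in the DTX library in a class of cells while it was at least 2-fold higher in others, and the difference between the classes was not tested. Cxcl3 had a log2 ratio of -2.79 in endothelial-like cells, from 72 and 7 UMIs in 3 of 73 and 6 of 54 cells, while it lay above 1 in macrophage-like, neutrophil-like, NK- or T-like, pericyte-like and epithelial-like cells. A single PBS cell held 63 of those 72 UMIs, and without the cell with the most UMIs in each library the ratio was -0.34 (-1.93 to 1.18). Pf4 had a log2 ratio of -2.91 in pericyte-like cells, from 62 and 14 UMIs, and of -3.36 in NK- or T-like cells, from 98 and 7 UMIs, while it was 2.04 in fibroblast-like and 2.55 in epithelial-like cells. The measured macrophage markers had median log2 ratios of -0.70 in pericyte-like cells, from 3 genes, and -1.63 in NK- or T-like cells, from 7. In fibroblast-like and epithelial-like cells the medians were 1.61, from 12 genes, and 2.06, from 11. The part of macrophage RNA in these ratios of Pf4 was not tested. Pf4 in NK- or T-like cells reversed to 1.30 with doublets kept and to 2.78 with at most 2000 genes per cell. In epithelial-like cells it reversed to -5.06 with the latter, which left 202 PBS and 16 DTX cells of that class. It was found in 12 of 225 PBS and 7 of 151 DTX NK- or T-like cells, thinned to 1000 UMIs in 1.79% and 1.33%, against 37.2% and 28.2% of macrophage-like cells. A single cell held 31 of the 62 PBS UMIs in pericyte-like cells and 68 of the 118 DTX UMIs in epithelial-like cells. Without such cells the ratios were -2.24 in pericyte-like, -2.98 in NK- or T-like and 1.52 in epithelial-like cells.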

How the results depend on the processing

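Each condition had 1 library, so the intervals hold counting error and nothing of the spread between mice. No paired analysis was possible because each group has 1 library. Of the alternatives to the main results 51 stayed within their limit and 32 moved beyond it. This limit was the counting interval for a ratio and a fixed fold for the count of genes past 2-fold. The remaining alternatives belonged to all other ratios, also in macrophage-like cells, and to shares of cells with a UMI. Of these 219 stayed within the counting interval, 103 moved beyond it and 9 reversed. The cause was not tested for any of these.

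In macrophage-like cells, the log2 ratio with at most 2000 genes per cell was 1.16 for Cxcl2, 3.54 for Cxcl3, 4.54 for Ppbp and 0.90 for Pf4. With doublets kept it was 1.12 for Cxcl2 and 0.31 for Pf4, with up to 10% mitochondrial UMIs 0.99 and 0.24, and centred on the median of all genes 0.96 and 0.13. It was 0.90 for Cxcl2 in cells without 6 neutrophil genes and 0.13 for Pf4 in cells without the 12 platelet genes. At a fixed makeup of subclusters, added after seeing the data, it was 0.64 for Cxcl2, 2.19 for Cxcl3, 2.61 for Ppbp and 0.47 for Pf4. Without the cell with the most UMIs of the gene in each library, also added after seeing the data, it was 3.54 for Ppbp. The count of 4 genes past 2-fold became 2 when centred and 2 at an absolute log2 ratio of at least 2. In neutrophil-like cells Cxcr2 was at 0.83 and Cxcl2 at 0.32 with doublets kept, and Pf4 at 5.72 with at most 2000 genes.

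In fibroblast-like cells Cxcl1 and Cxcl5 were at 2.18 and 3.51 with at most 2000 genes, 0.52 and 0.82 with doublets kept, 0.31 and 0.60 with up to 10% mitochondrial UMIs, 0.52 and 0.82 with at least 200 genes, 0.35 and 0.63 when centred, and 0.073 and 0.17 at a fixed makeup of clusters. Pf4 there was at 0.89, Cxcl2 at 2.14 and Cxcl3 at 1.82 with at most 2000 genes. Directions reversed with at most 2000 genes for Cxcl5 in macrophage-like cells (0.61), for Cxcl1 (-0.073), Cxcl3 (-4.39) and Pf4 (-4.00) in dendritic-like cells, for Pf4 in NK- or T-like cells (2.78), and for Cxcl5 (0.63) and Pf4 (-5.06) in epithelial-like cells, where Cxcr2, whose interval held 0, was at -1.06. Pf4 in NK- or T-like cells also reversed with doublets kept (1.30), and Cxcl2 in endothelial-like cells without the cell with the most UMIs (-0.018). Under the limit of 2000 genes no cluster was pericyte-like or endothelial-like, so no value was had there.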
